A study of Mus musculus with 6 samples.

Results

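The genes described here are the orphan and adhesion G protein-coupled receptors of the mouse hippocampus, chosen by name: rows of the deposited table typed as protein coding whose symbol begins with Gpr and a digit, or with Adgr, a family letter and a digit. The rule took 64 of the 15388 genes in the table, 47 named Gpr and 17 named Adgr. RNA came from hippocampus of Cx3cr1-Cre/Ert2+; NuTRAP+ mice, in which tamoxifen allows Cre to turn on a GFP-tagged ribosomal protein in cells that use the Cx3cr1 promoter. Microglia use that promoter in the brain, and so do macrophages at its borders. In translating ribosome affinity purification (TRAP), tissue was homogenized and cleared, a sample set aside from the cleared lysate served as Input, and the ribosomes that antibody to GFP pulled down from the rest made up the Positive fraction. All the mice carried the Cre allele and the NuTRAP allele, each in 1 copy, were males and females of about 3 months when used, and received tamoxifen at 100 mg/kg by injection into the abdomen on 5 days in a row. The 3 animals are numbered 201, 207 and 208, and an Input and a Positive library were made from each, which gives 6 libraries. Libraries of mice without Cre were not analysed here, so the background of RNA carried through the pull-down by itself was not measured. The question put to these genes was which of them had more, and which had less, of their RNA on tagged ribosomes than in the whole hippocampus.

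G protein-coupled receptors are membrane proteins that bind a ligand outside the cell and switch on heterotrimeric G proteins inside it. They are called orphans while no ligand is agreed on, and several that keep the name Gpr now have one. Adhesion receptors join such a membrane domain to a long extracellular part that binds neighbouring cells or matrix, and many cut themselves at a site next to the membrane. In brain, microglia are known for receptors to nucleotides, lysolipids and chemokines, neurons for latrophilins and brain angiogenesis inhibitors at synapses, and oligodendrocyte lineage cells for receptors tied to their maturation. Of the 64 genes, 56 carried the Gene Ontology term for G protein-coupled receptor activity. The other 8 (Gpr89, Gpr107, Gpr108, Gpr137, Gpr137b, Gpr137c, Gpr155 and Gpr180) did not, and they were kept because the rule is by name. In the GENCODE M21 annotation 100 protein-coding genes have names that match the rule. The 36 of them not in the table, 26 named Gpr and 10 named Adgr, were not analysed here.

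The libraries held 14879734 to 17757918 reads, of which the 64 genes took 0.366% to 0.393%. The fraction labels were checked against short marker lists, which do not test that the tissue was hippocampus. All 6 microglial markers and all 7 border macrophage markers were higher in Positive, with median log2 fold changes of 4.63 and 4.15. All 6 endothelial markers were higher as well (median 1.97), while all 6 oligodendrocyte markers (median -2.82), 5 of 6 oligodendrocyte precursor markers (median -1.15) and 3 of 6 astrocyte markers (median -0.39) were lower. Neuronal markers were close to even, with 2 of 6 higher and a median of 0.14. No lymphocyte marker of 6 and only Ly6c2 of 6 monocyte and neutrophil markers was in the table. The Positive library of animal 208 stood apart: on the second principal component its score was -29.2, against 18.4 and 9 for the other Positive libraries and -5.9 to 9.9 for Input. Results that rest on it are given with and without it. In whole tissue, fewer cells of a type and less RNA per cell cannot be told apart.

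The most enriched of the 64 genes were Gpr65, Gpr34, Adgre1, Gpr84, Gpr183 and Gpr160, most of them known from myeloid cells. In Positive they were 19.1-fold to 29.5-fold higher than in Input, and Gpr35 was 6.92-fold higher. Adgrg1, Adgrf5, Adgrl4 and Gpr165 followed at 2.78-fold to 4.17-fold. At the other end Gpr17, Gpr62 and Gpr37 had 24.8% to 38.4% of their Input level. The receptors with the most reads, Adgrb2, Adgrl1 and Adgrb1, had overlapping fractions and were not called. Positive was compared with Input by the quasi-likelihood test of edgeR over all 15343 genes tested, fold changes are Positive over Input, and a gene with a Benjamini-Hochberg adjusted p under 0.05 was called.

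Of the 64 receptor genes 32 were called (50%), beside 46% of all genes tested. In Positive 17 were higher (26.6%), beside 23.9% of all genes, and 15 were lower (23.4%), beside 22% of all genes. These shares lie near those of the whole table. The number lower was 9 when the Input library of 208 or the Positive library of 207 was left out. Of all genes, 5539 and 5915 were called in these fits, against 7051 with all libraries. With libraries scaled by their total reads, 15 of the 64 genes were higher and 19 lower. The share of higher among all genes called then went from 52.1% to 41.6%. Enrichment over 5-fold was found for 7 receptor genes (10.9%), beside 3.75% of all genes. All 32 called genes had one direction in the 3 animals, but the calls came from the same libraries, so this adds no support to them. The fractions did not overlap for 18 genes higher in Positive, beside 28.9% of all genes tested, and for 17 genes lower in Positive, beside 27.6%. The median log2 fold change was -0.13 over the 64 genes, -0.19 over those named Gpr, -0.05 over those named Adgr and -0.01 over all genes tested. Each of the 64 passed the filter on low values (above 20 reads, scaled for depth, in every library of a fraction), and 57 did so in all 6 libraries. The 6 genes Gpr65, Gpr84, Gpr183, Gpr160, Gpr35 and Adgrd1 passed through Positive alone and Gpr182 through Input alone, so 5 of the 7 genes over 5-fold were kept only because they were high in Positive.

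**Figure D1:**
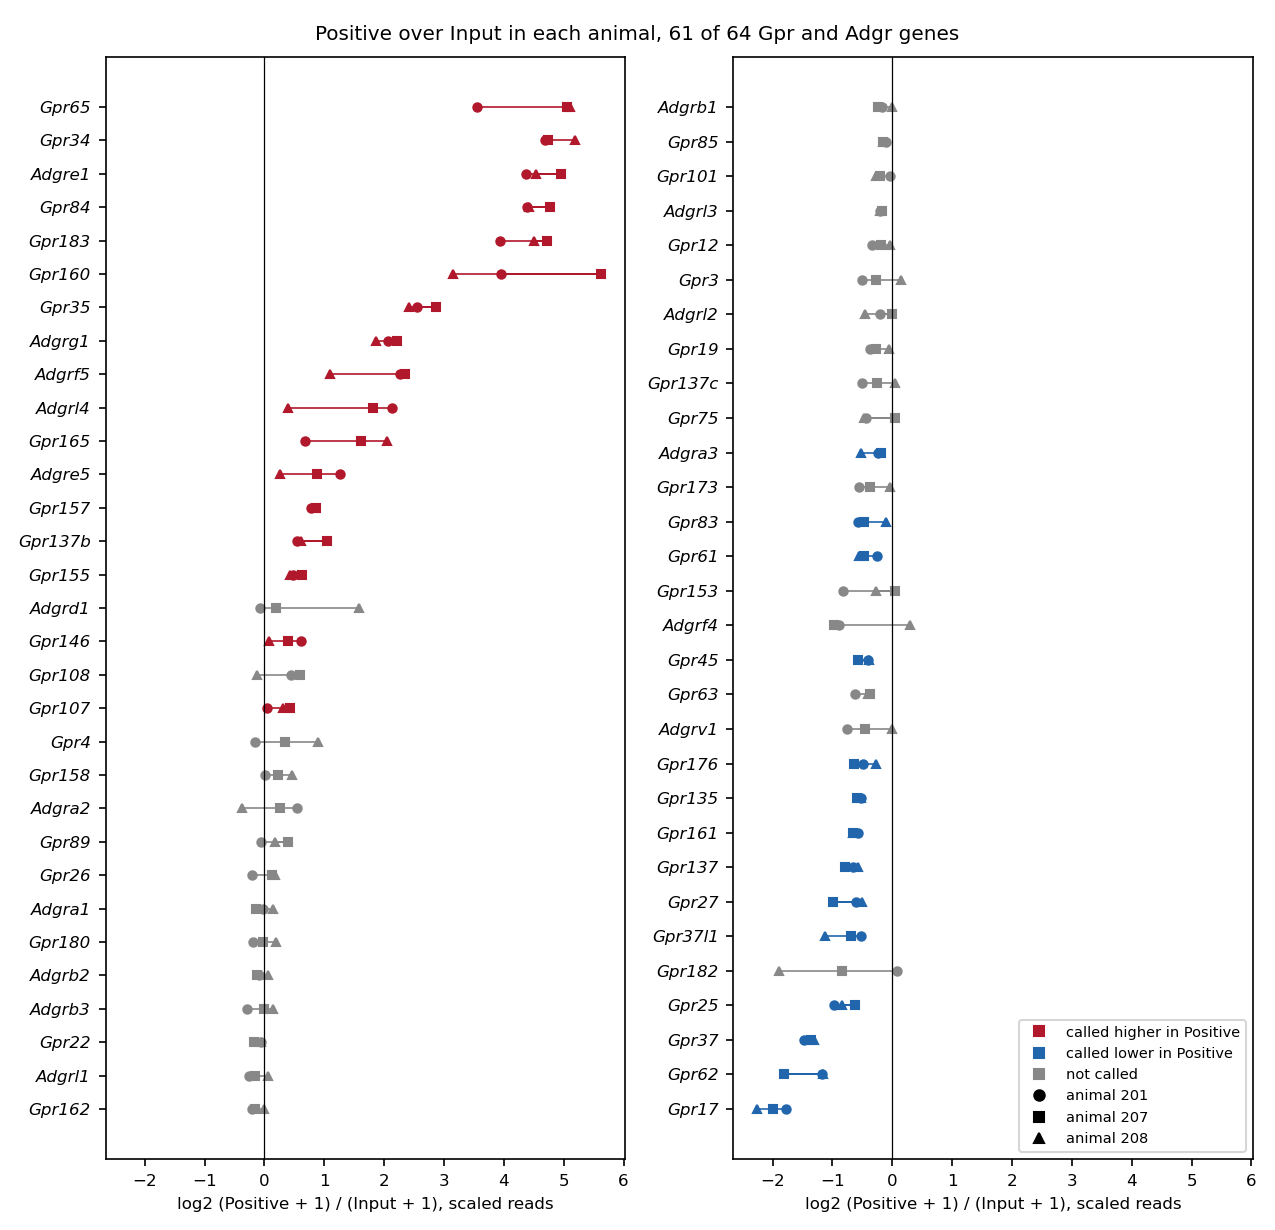
Each row is 1 of 61 of the 64 genes, ordered by log2 fold change down the left panel and then down the right, and the horizontal axis is log2 of Positive over Input scaled reads (each plus 1) in each of the 3 animals. The 7 genes over 5-fold sit at the top left with every animal above 2, Gpr17, Gpr62 and Gpr37 sit at the bottom right with every animal below -1, and most grey rows lie close to 0.

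Promoters of 4 of these genes are shown because they span the range from the most enriched to one not called and differ in their CpG dinucleotides, which are clustered at promoters active in most tissues and sparse at many tissue-restricted ones. They were chosen after their values were seen. Each is the stretch of 250 bases before the RefSeq start (build GRCm38.p6), read 5′ to 3′ on the strand of the gene, lies outside the annotated exons of that gene, and has CpG in capitals. The first belongs to Gpr65, the largest log2 fold change, the next to Gpr160, and then come Gpr37l1, which was lower in Positive, and Adgrl1, which was not called.
Gpr65, chr12:98268385-98268634, plus strand: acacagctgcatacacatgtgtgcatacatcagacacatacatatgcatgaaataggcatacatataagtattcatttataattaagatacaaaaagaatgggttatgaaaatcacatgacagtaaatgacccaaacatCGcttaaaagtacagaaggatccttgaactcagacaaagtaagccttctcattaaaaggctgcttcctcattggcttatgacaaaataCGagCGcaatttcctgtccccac
Gpr160, chr3:30855700-30855949, plus strand: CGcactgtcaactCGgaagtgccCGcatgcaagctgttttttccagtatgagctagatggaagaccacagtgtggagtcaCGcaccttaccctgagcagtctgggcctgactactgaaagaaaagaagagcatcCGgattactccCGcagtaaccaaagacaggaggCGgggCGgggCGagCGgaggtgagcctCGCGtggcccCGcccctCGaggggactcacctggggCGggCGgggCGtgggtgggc
Gpr37l1, chr1:135167682-135167931, minus strand: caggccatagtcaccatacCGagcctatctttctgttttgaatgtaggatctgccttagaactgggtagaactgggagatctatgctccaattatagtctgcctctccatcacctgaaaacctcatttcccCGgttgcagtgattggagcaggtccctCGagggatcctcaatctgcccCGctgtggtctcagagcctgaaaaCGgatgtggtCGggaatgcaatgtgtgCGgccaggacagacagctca
Adgrl1, chr8:83899848-83900097, plus strand: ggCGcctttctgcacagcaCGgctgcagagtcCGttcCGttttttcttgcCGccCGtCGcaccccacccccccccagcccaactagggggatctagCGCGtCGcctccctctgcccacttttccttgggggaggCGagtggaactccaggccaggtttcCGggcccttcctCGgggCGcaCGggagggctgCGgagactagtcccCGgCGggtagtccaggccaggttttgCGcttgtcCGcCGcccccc
The counts of CpG in these stretches were 3 for Gpr65, 17 for Gpr160, 7 for Gpr37l1 and 21 for Adgrl1. Of all RefSeq promoters, 37.8% had as many as Gpr65 or fewer, 57% as many as Gpr37l1 or fewer, 78.3% as many as Gpr160 or fewer and 85.2% as many as Adgrl1 or fewer. The counts of Gpr65 and Gpr160, both higher in Positive, lay on either side of that of Gpr37l1. Both genes passed the filter on low values through Positive alone, so nothing about CpG and enrichment is read from these 4 promoters.

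Promoter sequence was available for 48 of the 64 genes. CpG was counted over windows of 300 bases (250 before and 50 after the start), and each gene entered with its promoter that held the most. The median count was 8 over all genes with a promoter and 16.5 over the 48 receptor genes. It was 8 over the 13 called higher, 20 over the 11 called lower and 17.5 over the 24 not called. Over the 8 genes called higher by less than 5-fold it was 13. The 48 receptor genes had 66 promoters, and all 27025 genes had 32851. More promoters per gene can raise such a highest count. For the 5 genes over 5-fold that matched (Gpr65, Gpr84, Gpr183, Gpr160 and Gpr35), the median was 4. Those 5 passed the filter on low values through Positive alone. Nothing about enrichment is therefore read from their median or from that of the 13, which includes them. The medians are descriptions with no test. Myeloid genes are often bound by the ETS factor Spi1, and the letters GAGGAAGT, of the kind it binds, were searched on both strands beside the general ETS letters CCGGAAGT, with which they share GGAAGT. GAGGAAGT was in a promoter of 3.69% of all genes and of 2 of the 48 receptor genes (4.17%), neither called higher, so the 13 called higher held 0. CCGGAAGT was in 4.31% of all genes and in 1 receptor gene, Gpr107. Absence of these letters from so short a window says nothing about binding of the factor.

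Lipid and metabolite receptors were 5 in number, and all were called, 4 higher and 1 lower, beside 46% of all genes tested. Among them Gpr84, Gpr183 and Gpr35 passed the filter on low values through Positive alone, so nothing about the group is read from this count. Gpr34, a receptor for lysophosphatidylserine that microglia are known for (chrX:13632089-13640858, mm10), had 86.7, 129 and 62.9 scaled reads in the Input libraries of animals 201, 207 and 208 and 2269, 3462 and 2314 in Positive. Every Positive library was far above every Input library, and the log2 fold change was 4.84, SE 0.22, adjusted p = 2.32e-09. Counting Gpr34 itself, 34 of the 15343 genes tested (0.222%) had one as large.

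Gpr84, a receptor for medium-chain fatty acids on myeloid cells (chr15:103308236-103310438, mm10), had 13.2, 11.3 and 9.89 scaled reads in Input and 298, 335 and 232 in Positive, a log2 fold change of 4.65, SE 0.24, adjusted p = 5.79e-09. Gpr183, which guides immune cells along gradients of oxysterols (chr14:121952551-121965195, mm10), had 16.3, 13.2 and 10.5 in Input and 264, 373 and 259.6 in Positive, a log2 fold change of 4.47, SE 0.24, adjusted p = 1.10e-08. In both genes every Positive library stood far above every Input library. Gpr35, for which kynurenic acid and lysophosphatidic acid have been proposed as ligands (chr1:92950865-92986391, mm10), was scarce: it had 6.23, 5.52 and 3.97 scaled reads in Input and 41.2, 46.5 and 25.3 in Positive, and a log2 fold change of 2.79, SE 0.39, adjusted p = 7.73e-05. Its raw Input reads numbered 16 over the 3 libraries against 114 in Positive, a ratio of 7.1 after scaling with an exact 95% interval of 4.19 to 12.8 that covers counting error only. No molecular identifiers are named for these libraries. Gpr17, a receptor of oligodendrocyte precursors as they begin to mature, was the member of the group that fell, and it is described with the other oligodendrocyte receptors.

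The proton sensors are receptors that respond when the medium around a cell turns acid, and of those described here Gpr65 was called and Gpr4 was not. Gpr65 (chr12:98268635-98276644, mm10), which is coupled to Gs and found on leukocytes, had 4.08, 1.88 and 0 scaled reads in Input and 58.7, 94.9 and 33.2 in Positive. Its log2 fold change of 4.88, SE 0.61, adjusted p = 2.99e-05 was the largest of the 64 genes and had the largest standard error. Behind it stood raw Input reads of 4, 2 and 0, 6 in all, against 191 in Positive, which gave a ratio of 31.7 with an exact 95% interval of 14.3 to 87.5 for counting error only. Without the Input library of 201, which held most of those reads, the log2 fold change was 5.82 (adjusted p = 0.000298). Gpr4, the sensor of endothelial cells, had 66.6, 36.6 and 23.1 in Input and 59.7, 46.5 and 43.6 in Positive, and the fractions overlapped (log2 fold change 0.25, SE 0.34, adjusted p = 0.577, 95% interval -0.41 to 0.91 from the SE). Per animal, the log2 ratio of Gpr65 exceeded that of Gpr4 by 4.21 ± 0.51 (SD, n = 3). Gpr65 stood above Gpr4 in 3 of 3 animals. It passed the filter on low values through Positive alone, so a high ratio was built into its selection. Nothing about the pair is therefore read from this order. The size of the difference also depends on the 1 added to scaled reads, since an Input library held 0 reads of Gpr65. The smallest two-sided p an exact sign-flip test of 3 differences allows is 0.25.

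Of the 21 other class A orphans 4 were higher and 8 were lower in Positive, beside 23.9% and 22% of all genes tested. Gpr160, an orphan proposed to bind the peptide CART (chr3:30855950-30897192, mm10; promoter shown above), had 6.12, 1.88 and 10.5 scaled reads in Input and 109, 141 and 101 in Positive, a log2 fold change of 4.25, SE 0.38, adjusted p = 1.28e-06. Its Input rested on 18 raw reads over the 3 libraries against 355 in Positive, a ratio of 19.6 (exact 95% interval 12.3 to 33.5, counting error only). Without the Input library of 208 its log2 fold change was 4.86 (adjusted p = 3.57e-06). Gpr165, an orphan on the X chromosome (chrX:96713441-96719388, mm10), had 51, 47.9 and 30.9 in Input and 82.4, 148 and 129.8 in Positive (1.47, SE 0.27, adjusted p = 0.000683). Its lowest Positive library, that of animal 201, was closer to Input than those of the other animals. Gpr157 (log2 fold change 0.83, SE 0.23, adjusted p = 0.00911) and Gpr146 (0.37, SE 0.14, adjusted p = 0.0427) were higher by less. The call of Gpr146 was lost when any library other than the Positive library of 208 was left out, with log2 fold changes of 0.28 to 0.39 and adjusted p of 0.0808 to 0.156. It was also lost with total count scaling (adjusted p = 0.101) and with the filter at 100 scaled reads (0.0603).

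Adhesion receptors of family E, known from myeloid and other immune cells, were both higher in Positive. Adgre1, the classical surface antigen of mouse macrophages (chr17:57358686-57483529, mm10), had 73.4, 66.7 and 54.5 scaled reads in Input and 1539.6, 2094 and 1288 in Positive, a log2 fold change of 4.66, SE 0.19, adjusted p = 8.24e-10. The fractions were far apart in every animal. Adgre5, the leukocyte and endothelial receptor CD97 that binds CD55 (chr8:83723251-83741326, mm10), had 91.3, 86.8 and 96.4 in Input and 222, 159.7 and 116 in Positive (0.86, SE 0.22, adjusted p = 0.00701). Its Positive libraries were all above Input, with that of animal 208 lowest. The log2 ratio of Adgre1 exceeded that of Adgre5 by 3.82 ± 0.63 (SD, n = 3) in the 3 animals. Beside them, the microglial marker list had log2 ratios (medians over its genes) of 4.6, 4.88 and 4.36 in animals 201, 207 and 208, and the border macrophage list 3.8, 4.47 and 3.79. The values of Adgre1 per animal were 4.37, 4.95 and 4.54. List medians depend on the genes chosen. The microglial list from cell sorting that came with the study had a median log2 fold change of 3.65 over its 235 genes tested. That is below the 4.15 of the 7 border macrophage markers. From bulk tissue the share of each cell type in the values of Adgre1 was not tested.

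Adgrg1, the only member of family G in the table, is a receptor for collagen III and transglutaminase found on microglia and also on neural progenitors and astrocytes (chr8:94974751-95014217, mm10). It was already abundant in Input, with 951, 946 and 902 scaled reads, and had 4008, 4378 and 3297 in Positive. The log2 fold change was 2.06, SE 0.1, adjusted p = 4.91e-09, a smaller factor than for Gpr34 or Adgre1 on a higher Input. Per kilobase of exon its level was 172 ± 5.05 scaled reads in Input (SD, n = 3) and 718 ± 101 in Positive.

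**Figure D2:**
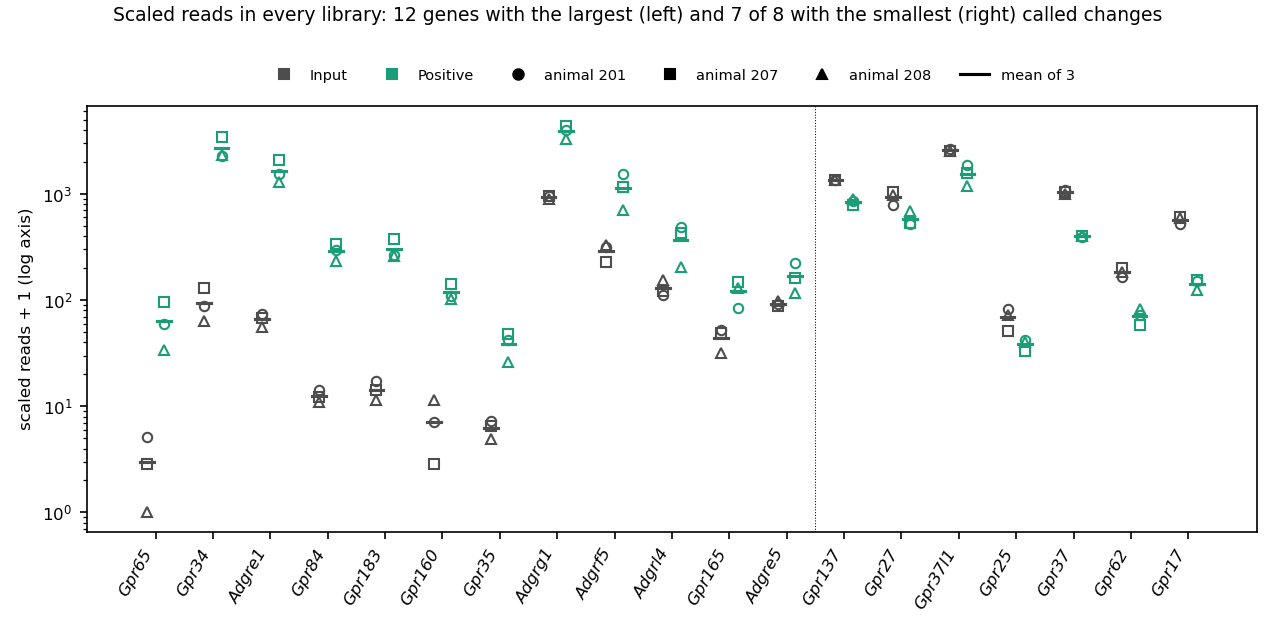
Scaled reads plus 1 on a log axis in every library for the 12 called genes with the largest and 7 of the 8 with the smallest log2 fold change, with Input in grey, Positive in green, a symbol for each animal and a bar at the mean of 3. Input and Positive are separate for each gene shown, and in the left part every gene other than Gpr34 and Gpr165 has its lowest Positive value in animal 208.

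The receptors of the vessel wall Adgrf5 and Adgrl4 were higher in Positive, and least so in animal 208, as were the endothelial markers. Adgrf5, an adhesion receptor of endothelium and lung (chr17:43360451-43459557, mm10), had 318, 229 and 326 scaled reads in Input and 1529.7, 1165 and 697 in Positive, a log2 fold change of 1.96, SE 0.23, adjusted p = 1.84e-05. Adgrl4, a latrophilin relative that marks endothelial cells (chr3:151437887-151545086, mm10), had 110.2, 120.0 and 153 in Input and 484, 425 and 202 in Positive (1.54, SE 0.26, adjusted p = 0.000436). For both genes the Positive library of 208 was the lowest of the 3, though still above every Input library. Gpr65, Adgre1, Gpr84, Gpr183, Gpr160, Gpr35 and Adgrg1 also had their lowest Positive value in that library. The log2 ratios in animals 201, 207 and 208 were 2.26, 2.34 and 1.09 for Adgrf5 and 2.13, 1.82 and 0.4 for Adgrl4. The median of the 6 endothelial markers was 2.21, 2.26 and 1.13 in the same animals, and that of the 6 mural cell markers was 0.46, 0.21 and -0.63. The summed endothelial markers ranged from 1791 to 2242.5 scaled reads in Input and from 4196 to 8220.4 in Positive, and none of them was at 0. Without the Positive library of 208, Adgrf5 was 4.64-fold and Adgrl4 3.56-fold higher, against 3.89-fold and 2.9-fold with it. The part of endothelial RNA in these results was not tested.

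Adgra2, a partner of Wnt signals in brain endothelium, also had its lowest value in animal 208, with log2 ratios of 0.55, 0.26 and -0.38. It was not called (0.18, SE 0.18, adjusted p = 0.43), and without the Positive library of 208 it was (log2 fold change 0.38, adjusted p = 0.03). Adgre5, described with family E, had log2 ratios of 1.27, 0.87 and 0.26. Gpr182, an atypical receptor of endothelium that takes up chemokines, had log2 ratios of 0.08, -0.84 and -1.89 and was not called (-0.78, SE 0.34, adjusted p = 0.0817). Without the Positive library of 201 it was called lower (-1.11, adjusted p = 0.0292), and without that of 208 it was not (-0.44, adjusted p = 0.205). Of the receptors known from endothelium, Adgrf5, Adgrl4 and Adgre5, which leukocytes share, were thus higher, while Gpr4, Adgra2 and Gpr182 were not called with all 6 libraries.

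**Figure D3:**
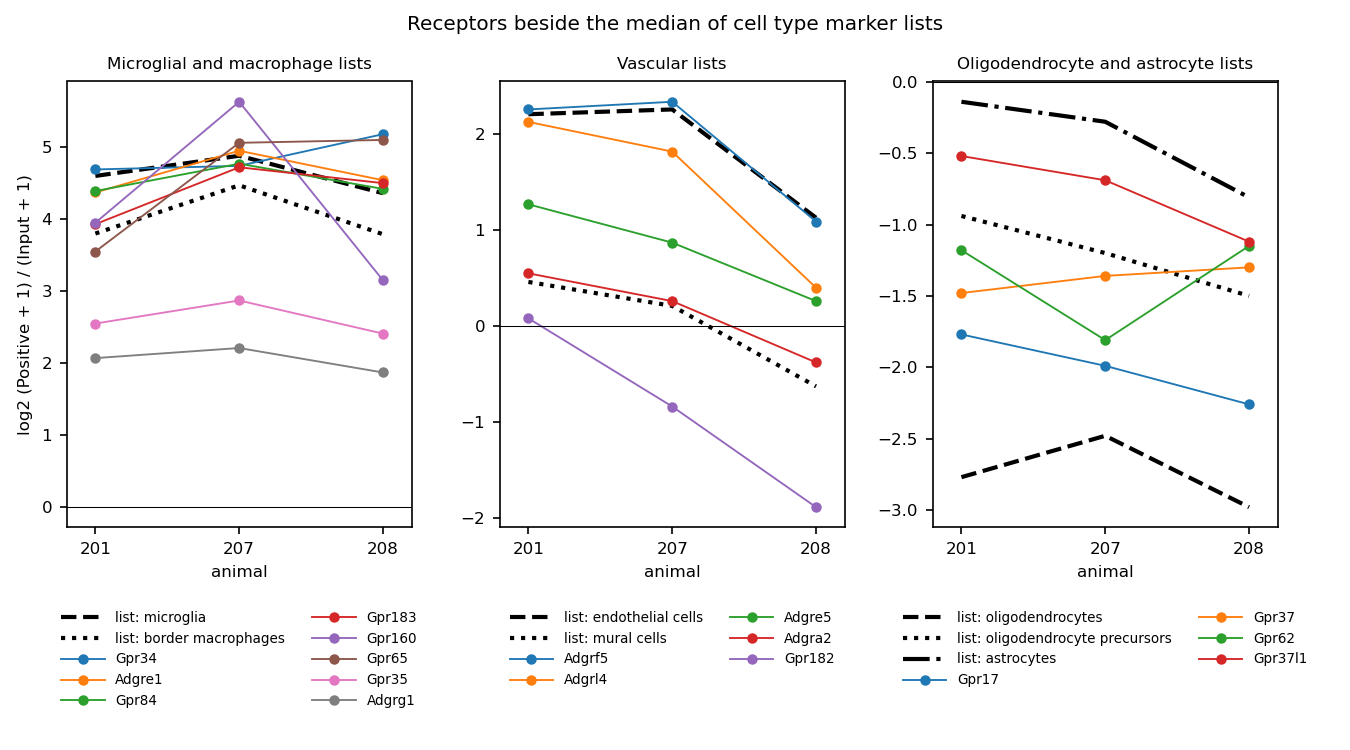
Log2 of Positive over Input (scaled reads plus 1) in animals 201, 207 and 208, with coloured lines for receptors and black lines for the median of a marker list; lines only join values of the same gene or list, since the animals have no order. Gpr34, Adgre1, Gpr84 and Gpr183 lie between 3.93 and 5.18, with the microglial list at 4.36 to 4.88 and the border macrophage list at 3.79 to 4.47. Adgrf5 tracks the endothelial list down to 1.09 in animal 208, and Gpr37 and Gpr62 lie between the oligodendrocyte and the astrocyte lists.

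Latrophilins, the receptors through which teneurins and FLRT proteins act at synapses, were not called apart from Adgrl4. Adgrl1 (chr8:83900105-83941954, mm10; promoter shown above) had 9836, 8306 and 8623 scaled reads in Input and 8238, 7483 and 8992 in Positive. Adgrl2 had 825, 642 and 797 in Input and 720.3, 639 and 578 in Positive, and Adgrl3 had 1226, 1188 and 1216 in Input and 1070.3, 1057 and 1057 in Positive. The fractions overlapped for Adgrl1 and Adgrl2, and the Positive libraries of Adgrl3 were all below Input by a small step. The log2 fold changes were -0.12, SE 0.1, adjusted p = 0.345 for Adgrl1, -0.22, SE 0.12, adjusted p = 0.131 for Adgrl2 and -0.19, SE 0.07, adjusted p = 0.053 for Adgrl3, with 95% intervals from the SE of -0.3 to 0.07, -0.45 to 0.0 and -0.33 to -0.04. Adgrl2 was called lower without the Input library of 207 (-0.33, adjusted p = 0.0447) and with total count scaling (-0.3, adjusted p = 0.0491). Adgrl3 was called lower with total count scaling (-0.27, adjusted p = 0.0105) and with the filter at 100 scaled reads (-0.22, adjusted p = 0.0269). The log2 ratio of Adgrl4 exceeded those of Adgrl1, Adgrl2 and Adgrl3 by 1.56 ± 1.08 (SD, n = 3), 1.67 ± 0.74 (SD, n = 3) and 1.64 ± 0.91 (SD, n = 3), higher in 3 of 3 animals.

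The brain angiogenesis inhibitors (family B), neuronal and glial receptors of which Adgrb1 recognises phosphatidylserine on dying cells and Adgrb3 binds C1q-like proteins, were not called. Adgrb2, the most abundant of the 64 genes (chr4:129984870-130022633, mm10), had 11039, 10514 and 10792 scaled reads in Input and 10343, 9591 and 11259.8 in Positive. Adgrb1 had 8114, 7102 and 6785 in Input and 7207, 6019 and 6757 in Positive, and Adgrb3 had 1635, 1401 and 1439 in Input and 1339, 1387 and 1589 in Positive. In each of the 3 genes the fractions overlapped. Their log2 fold changes were -0.14, SE 0.1, adjusted p = 0.25 for Adgrb1, -0.05, SE 0.09, adjusted p = 0.642 for Adgrb2 and -0.05, SE 0.09, adjusted p = 0.663 for Adgrb3, and their 95% intervals ran from -0.33 to 0.05, -0.22 to 0.11 and -0.23 to 0.13. In the same libraries the median over the neuronal markers was 0.14.

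**Figure D4:**
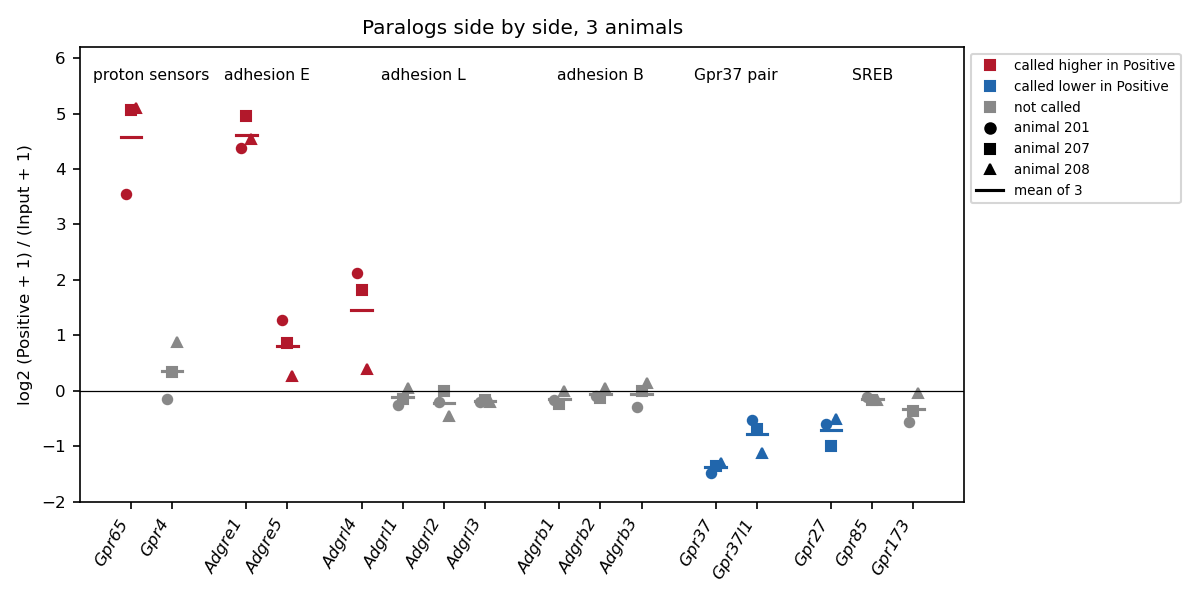
Log2 of Positive over Input (scaled reads plus 1) in the 3 animals for related receptors side by side, with a bar at the mean of 3 and colours for the call. Gpr65, Adgre1 and Adgrl4 stand above the relatives shown in each animal, families B and the other latrophilins lie near 0, and Gpr37 lies below Gpr37l1. Gpr65 passed the filter on low values through Positive alone, so nothing is read from its place.

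Of the remaining adhesion receptors, Adgra3, an orphan of family A, was called lower (-0.32, SE 0.12, adjusted p = 0.0494), with overlapping fractions and a call lost without the Input library of 201 or 208 or the Positive library of 207 or 208 (adjusted p of 0.117 to 0.145), with TMM scaling (0.0516) and with DESeq2 (0.0542). Adgra1, of the same family and found in neurons, was not called (95% interval of the log2 fold change -0.19 to 0.19). Adgrf4 (-0.44, SE 0.32, adjusted p = 0.271), Adgrd1 (0.46, SE 0.38, adjusted p = 0.352) and Adgrv1, a very large receptor of stereocilia (-0.47, SE 0.3, adjusted p = 0.225), had low counts and were not called, though Adgrf4 was lower without the Positive library of 208 (-0.89, adjusted p = 0.0187). For Adgrd1 the scaled reads were 34.8, 19.3 and 10.5 in Input and 33, 22.3 and 33.2 in Positive, so the fractions overlapped. The Celsr cadherins of planar polarity are adhesion receptors too, but their names fall outside the rule. Among these 3 genes, 2 were lower, beside 22% of all genes tested, and nothing about the group is read from this count. They were Celsr1 (log2 fold change -0.61, SE 0.16, adjusted p = 0.00671) and Celsr2 (-0.31, SE 0.08, adjusted p = 0.00519), and Celsr3 was not called (-0.24, adjusted p = 0.0506).

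Receptors of the oligodendrocyte lineage had the largest depletion. Gpr17 had 514, 611 and 592 scaled reads in Input and 150.4, 152 and 122 in Positive, a log2 fold change of -2.01, SE 0.13, adjusted p = 7.15e-08. Gpr62, an orphan of mature oligodendrocytes (chr9:106463962-106465938, mm10), had 164, 201 and 183 in Input and 72.1, 56.7 and 82.2 in Positive (-1.38, SE 0.19, adjusted p = 6.15e-05). Gpr37, which regulates myelination and for which prosaposin was proposed as a ligand (chr6:25665878-25690729, mm10), had 1090.4, 1039 and 986 in Input and 390.3, 404 and 400.4 in Positive (-1.38, SE 0.09, adjusted p = 5.12e-08). Every Positive library lay below every Input library in these 3 genes. The oligodendrocyte markers had a median of -2.82, with per-animal medians of -2.77, -2.48 and -2.98, and the precursor markers -1.15, with -0.94, -1.2 and -1.5. Gpr37, Gpr62 and Gpr17 are in the oligodendrocyte list from cell sorting that came with the study, whose 183 genes tested had a median of -0.79. All 3 genes kept their call when any single library was left out.

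Gpr37l1, the astrocytic relative of Gpr37 (chr1:135160234-135167681, mm10; promoter shown above), had 2655, 2509 and 2544 scaled reads in Input and 1852, 1559 and 1172 in Positive, a log2 fold change of -0.75, SE 0.13, adjusted p = 0.000396. The Positive libraries were all below Input, and that of animal 208 was the lowest. The median of the 6 astrocyte markers was -0.14, -0.28 and -0.81 in animals 201, 207 and 208, and the log2 ratio of Gpr37l1 was -0.52, -0.69 and -1.12. Without the Positive library of 208 its log2 fold change was -0.59. The log2 ratio of Gpr37 minus that of Gpr37l1 was -0.61 ± 0.39 (SD, n = 3), below 0 in 3 of 3 animals. Gpr75 and Gpr83, the other receptors grouped with peptide and protein ligands, had log2 fold changes of -0.27, SE 0.18, adjusted p = 0.248 and -0.38, SE 0.14, adjusted p = 0.0439, and the call of Gpr83 was lost without any 1 library other than the Positive library of 208 (adjusted p of 0.0656 to 0.165) and with DESeq2 (0.052).

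Further orphans were lower in Positive by smaller factors. Gpr25 (chr1:136259797-136260873, mm10) had 81.6, 50.2 and 71.9 scaled reads in Input and 40.9, 32.4 and 39.6 in Positive (-0.85, SE 0.26, adjusted p = 0.0168). The fractions were separate. Its call was lost without the Input library of 201 or 208 or the Positive library of 207 (adjusted p of 0.0584 to 0.0741). Gpr161, a ciliary brake on hedgehog signalling (-0.63, SE 0.1, adjusted p = 0.00016), Gpr135 (-0.55, SE 0.14, adjusted p = 0.00741), Gpr176 (-0.47, SE 0.14, adjusted p = 0.0175), Gpr45 (-0.46, SE 0.14, adjusted p = 0.0202) and Gpr61 (-0.43, SE 0.12, adjusted p = 0.00954) were also called lower. Of these, Gpr161 and Gpr135 kept their call when any library was left out. Gpr176 and Gpr45 lost theirs without the Input library of 207 or 208 or the Positive library of 201 or 207 (adjusted p of 0.0509 to 0.0844), and Gpr61 lost its call without the Input library of 208 (0.0591). The others in the group were not called, among them Gpr26 (0.03, SE 0.08, adjusted p = 0.802) and Gpr22 (-0.09, SE 0.1, adjusted p = 0.497), which is in the neuronal list from cell sorting that came with the study. Gpr162, a brain orphan with 3138.6 to 3920 scaled reads in Input, was not called either (-0.13, SE 0.1, adjusted p = 0.302). Also not called were Gpr101 (-0.17, SE 0.17, adjusted p = 0.432), Gpr19 (-0.23, SE 0.13, adjusted p = 0.175) and Gpr153 (-0.44, SE 0.29, adjusted p = 0.247).

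The SREB receptors are orphans of the brain whose sequence is unusually conserved among vertebrates. Gpr27 (chr6:99692679-99695066, mm10) had 784, 1052 and 982 scaled reads in Input and 517, 530.5 and 689 in Positive, and it was lower in every animal (-0.7, SE 0.13, adjusted p = 0.000841). Gpr85 (-0.14, SE 0.13, adjusted p = 0.372) and Gpr173 (-0.32, SE 0.14, adjusted p = 0.0763) were not called, and Gpr173 was without the Positive library of 208 (log2 fold change -0.41, adjusted p = 0.0298) and with total count scaling (-0.4, adjusted p = 0.0313). The log2 ratio of Gpr27 minus that of Gpr85 was -0.56 ± 0.25 (SD, n = 3), and minus that of Gpr173 it was -0.38 ± 0.3 (SD, n = 3), below 0 in 3 of 3 animals both times. Gpr3 and Gpr12 raise cyclic AMP without added ligand. Gpr3 had 76.8, 79 and 60.8 scaled reads in Input and 53.5, 65.1 and 67.7 in Positive, and Gpr12 had 259, 276 and 231 in Input and 204, 241 and 226 in Positive. The fractions overlapped in both (-0.22, SE 0.22, adjusted p = 0.437 for Gpr3 and -0.19, SE 0.13, adjusted p = 0.259 for Gpr12). Gpr158, a class C orphan of neurons, had 1326, 1262 and 1271 in Input and 1334, 1469 and 1744 in Positive, a log2 fold change of 0.24, SE 0.1, adjusted p = 0.0627 that was called with the animal as a block (adjusted p = 0.0441) and without the Positive library of 201 (0.0173).

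Among the 8 genes without the receptor activity term, 3 were higher and 1 was lower, beside 23.9% and 22% of all genes tested. Gpr155, a cholesterol sensor of the lysosome, was higher (0.5, SE 0.09, adjusted p = 0.000391), as were Gpr107 (0.27, SE 0.1, adjusted p = 0.0362), a protein of the secretory pathway, and Gpr137b (0.74, SE 0.14, adjusted p = 0.00104), a lysosomal membrane protein. Gpr137b has a near-identical pseudogene in the table, so the division of its reads is uncertain. Its relative Gpr137 (chr19:6938069-6942450, mm10) had 1346, 1356 and 1353 scaled reads in Input and 851, 782 and 903 in Positive and was lower (-0.68, SE 0.08, adjusted p = 2.28e-05). The third, Gpr137c, was not called (-0.23, SE 0.13, adjusted p = 0.163). The call of Gpr107 was lost without the Input library of 207 or 208 or the Positive library of 207 (adjusted p of 0.103 to 0.157), with total count scaling (0.115) and with the filter at 100 scaled reads (0.0576). The log2 ratio of Gpr137b exceeded that of Gpr137 by 1.42 ± 0.37 (SD, n = 3), higher in 3 of 3 animals. Gpr108 was not called with all libraries (0.34, SE 0.16, adjusted p = 0.0991) and was without the Positive library of 208 (log2 fold change 0.53, adjusted p = 0.00155). Gpr89 (0.16, SE 0.13, adjusted p = 0.338) and Gpr180 (-0.02, SE 0.13, adjusted p = 0.914) were not called.

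Levels of different genes were compared per kilobase of exon, using the union of exons of each gene in GENCODE M21. In Input the highest were Adgrb2 with 1662 ± 40.5 scaled reads per kb (SD, n = 3), Gpr37l1 with 1132 ± 33.5, Adgrl1 with 1039 ± 94 and Adgrb1 with 1016 ± 96.1. Gpr37l1 was above Adgrl1 and Adgrb1 in each Input library, while Adgrl1 and Adgrb1 changed order between libraries. In Positive the highest was again Adgrb2 with 1603 ± 129, followed by Gpr34 with 1283 ± 324, which lay about 1 SD from both Adgrb2 and Adgrl1, the latter at 959 ± 87.9. Gpr34 had ranked 40 of 64 in Input at 44.4 ± 16. Adgre1 moved from rank 52 in Input (20 ± 2.96) to rank 8 in Positive (507 ± 127), and Gpr84 from rank 58 (6.65 ± 0.977) to rank 17 (167 ± 30.2). Of the summed level per kb of the 64 genes, Gpr34 made up 0.427% ± 0.159 in Input and 10.9% ± 2.47 in Positive (SD, n = 3). The 7 genes over 5-fold together made up 0.761% ± 0.177 in Input and 18.1% ± 3.87 in Positive. They were picked for their rise in these same libraries, so a larger share in Positive was fixed in advance and only its size is described. The 32 genes not called still held 54.7% ± 4.44 of the Positive sum. Per-kb levels rest on all annotated exons, and which isoforms were present was not tested.

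**Figure D5:**
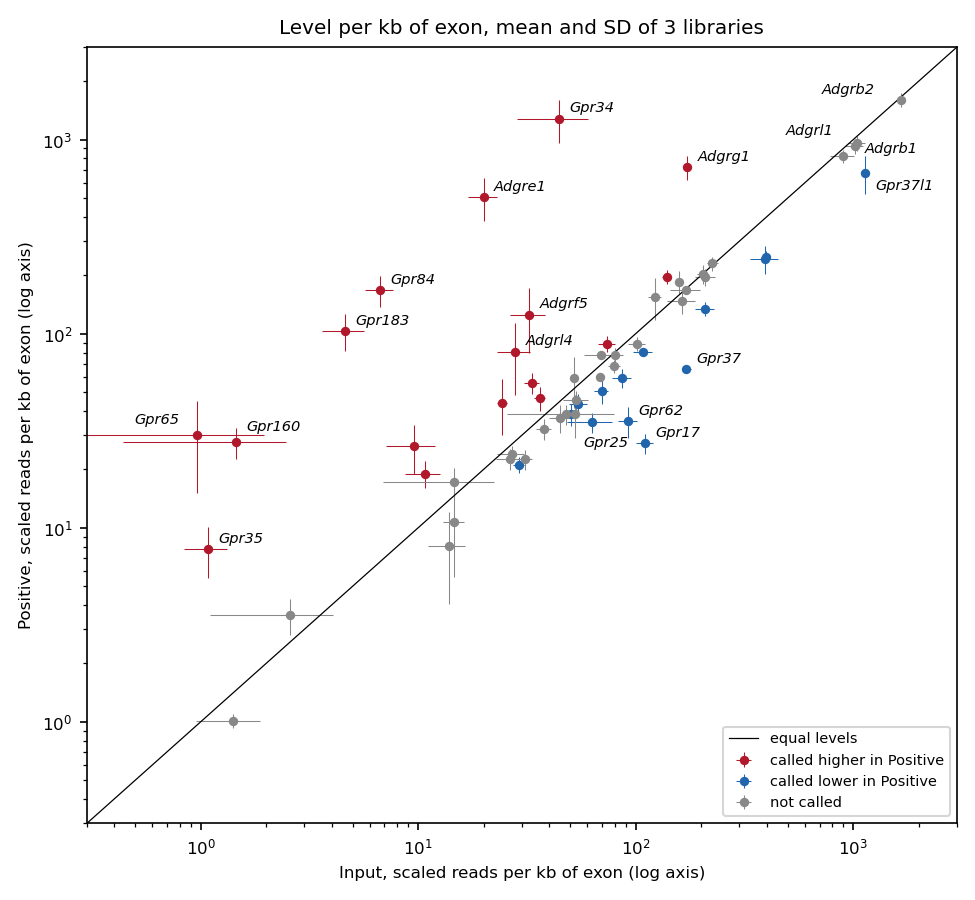
Mean level of 61 of the 64 genes in Input (horizontal) and Positive (vertical), in scaled reads per kb of exon on log axes, with SD over 3 libraries as bars and equal levels on the line; the bar of Gpr65 runs off the left edge because its SD exceeds its mean. Gpr34, Adgre1, Gpr84 and Gpr183 lie far above the line at Input levels of 4.61 to 44.4, and Adgrb2, Adgrl1 and Adgrb1 lie on it at the upper right.

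Partners of these receptors were listed by their known function. The counts below are to be set beside the 46% of all genes tested that were called, 23.9% higher and 22% lower, and nothing about a list is read from them. Of 24 ligands and ligand enzymes 21 were in the table, 6 higher and 5 lower. Tgm2, the transglutaminase that Adgrg1 binds, was higher (log2 fold change 2.8, SE 0.17, adjusted p = 2.48e-08), as were Abhd12, the lipase that breaks down the lysophosphatidylserine sensed by Gpr34 (0.74, SE 0.08, adjusted p = 7.71e-06), and Hsd3b7, which degrades the oxysterols sensed by Gpr183 (0.69, SE 0.25, adjusted p = 0.0394, with overlapping fractions and an adjusted p of up to 0.134 with 1 library left out). C1ql1, a ligand of Adgrb3, was lower (-1.85, SE 0.24, adjusted p = 4.14e-05). Of the other C1q-like proteins in the list, C1ql2 was higher (0.49, SE 0.14, adjusted p = 0.0128, and up to 0.0693 with 1 library left out). C1ql3 was not called (0.12, SE 0.1, adjusted p = 0.362). Of 13 G protein alpha subunits 12 were in the table, 5 higher and 1 lower. Gna15, a Gq-class subunit of blood cells, had the largest change (4.72, SE 0.22, adjusted p = 2.23e-09), followed by the Gi subunits Gnai2 (1.29, SE 0.1, adjusted p = 2.69e-07) and Gnai3 (0.5, SE 0.09, adjusted p = 0.000829), while Gnai1 was lower (-0.32, SE 0.09, adjusted p = 0.0135, and up to 0.0702 with 1 library left out). Without the Input or the Positive library of 207 there were 3 of these subunits called rather than 6. Of the 7 receptor kinases and arrestins 3 were higher and 1 was lower. Arrb2 rose the most (1.1, SE 0.09, adjusted p = 5.72e-07), Grk2 (0.32, SE 0.07, adjusted p = 0.00341) and Arrb1 (0.25, SE 0.07, adjusted p = 0.0151, and up to 0.0682 with 1 library left out) rose less, and Grk3 fell (-0.61, SE 0.08, adjusted p = 2.86e-05). The medians were -0.07, 0.06 and -0.07 for the 3 lists, beside -0.01 over all genes tested.

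Precision followed depth. The standard error of the log2 fold change had a median of 0.31 over the 14 receptor genes with a mean under 100 scaled reads, 0.14 over the 34 with 100 to 1000 and 0.1 over the 16 above that. Among the 14 with few reads 6 were called, beside 46% of all genes tested. Others had wide intervals: Gpr63 (-0.47, SE 0.21, adjusted p = 0.0825) had a 95% interval of -0.87 to -0.06 and Adgrv1 one of -1.06 to 0.13. Gpr63 was called lower with total count scaling (-0.54, adjusted p = 0.0454). At an unadjusted p under 0.05 there were 37 receptor genes and 8161 of all genes. By position, 3 pairs of the 64 genes had starts within 1000000 bases of each other, and in each pair 1 gene was called higher and its neighbour was not called: Adgrf5 and Adgrf4, Adgre1 and Gpr108, and Adgre5 and Adgrl1.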

How the data were processed

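RNA was sequenced from the Input and Positive fractions of the 3 mice, with directional poly(A) libraries read as short pairs. The authors aligned reads to mm10 in Strand NGS and counted them per gene. The raw columns that the authors deposited are expected counts (estimates, often fractional), and whole numbers made up 20% to 26.6% of the values of a library (tolerance 1e-06). Even numbers made up 64.2% to 69% of those below 60 reads. How the mates of a pair were counted was not settled, so the number of independent fragments may be lower than the number of reads. The deposited table had been filtered by the authors at 20 raw reads in all libraries of either fraction, a rule that 0 of its genes broke when tested. The deposited normalized columns are log2 values made by the authors with DESeq scaling and were not used in any test. Groups came from the fraction label.

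Expected counts were rounded and fitted over the whole table with edgeR 4.0.16 in R 4.3.3 (glmQLFit, glmQLFTest, RLE scaling), without an animal term, as the study did, keeping genes above 20 scaled reads throughout Input or throughout Positive (15343 of 15388). The Benjamini-Hochberg adjustment ran over all genes kept. Scaled reads are raw reads over the RLE size factor. An SE is the log2 fold change over the square root of its F statistic. Log2 ratios per animal use scaled reads plus 1. The scripts were tested on simulated data. Alternatives were TMM or total count scaling, no filter, a filter at 100, DESeq2 1.42.0, the animal as a block, and leaving out each library. The fractions of 1 animal share its number, so the numbers pair the libraries; the correlations of their deviations from the fraction means were 0.193, 0.058 and 0.12.

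The genes and lists were chosen with earlier results of these data known. Values in every library are given, among called genes that moved one way in all 3 animals, for the 12 with the highest and the 8 with the lowest log2 fold change, the 3 uncalled genes with the most reads, and paralog sets (Adgrl, Adgrb, Gpr37, Gpr4 and Gpr65, Gpr3 and Gpr12); partner genes are named where called, up to 4 a list. Of the 64 genes, 3 enter every count but are not reported here one by one. Other genes given in every library (Adgrd1 and Gpr158) were chosen after their values were seen. Exon lengths came from GENCODE M21, matched by gene ID for 64 of 64 genes, and promoters from RefSeq (GRCm38.p6), matched for 48. Differences between paralogs are per animal and have n = 3. The unbound fraction was not analysed here.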

Additional observations from a re-analysis of the deposited data

How the results depend on the processing

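Of the 64 genes, 62 kept their direction and their side of the threshold with TMM scaling and with DESeq2, 64 with no filter, 56 with total count scaling and 63 with the animal as a block. Called receptor genes numbered 32 in the fit reported, 31 with TMM, 34 with total count scaling, 32 with no filter, 26 with the filter at 100 scaled reads, 30 with DESeq2 and 33 with the animal number as a replicate block, which added Gpr158 (adjusted p = 0.0441) and changed no other call among the 64. In the same order of settings, all genes called numbered 7051, 7042, 7319, 7065, 5876, 6681 and 7570. Genes tested numbered 15343, but 15388 with no filter and 12156 with the filter at 100. Called higher were 11 with the filter at 100, where fewer genes were tested. The calls of Gpr65, Gpr35, Gpr165, Gpr157 and Gpr25 were lost there because these genes were not tested. Without 1 library the number called ranged from 24 to 34, the number higher from 15 to 19 and the number lower from 9 to 15. The number over 5-fold stayed 7. Of all genes 5539 to 7265 were called in these fits, and of the G protein alpha subunits 3 to 8. Total count scaling moved the median log2 fold change of all genes from -0.01 to -0.09. Directions turned among genes that were not called. Among those described, Gpr26 went to -0.048 with total count scaling and Adgra1 to 0.000 with TMM. With 1 library left out, log2 fold changes that crossed 0 ran from -0.039 to 0.73 for Gpr4, -0.043 to 0.383 for Adgra2, -0.011 to 0.094 for Gpr26, -0.066 to 0.093 for Adgra1, -0.14 to 0.063 for Gpr180, -0.113 to 0.002 for Adgrb2, -0.129 to 0.018 for Adgrb3 and -0.664 to 0.067 for Gpr153; the cause was not tested. Having 3 animals limits precision most for genes under 100 scaled reads. Promoters of 16 genes, genes under the filter of the authors and the unbound fraction were not analysed here.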
